A study of Mus musculus with 30 samples.

Results

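CD11b+ cells from the spleens of healthy C57BL/6 mice were compared with CD11b+ cells from the spleens of healthy BALB/c mice. CD11b, the product of Itgam, is an integrin chain carried by monocytes, macrophages and granulocytes, and also by some natural killer cells, dendritic cells and B cells. Members were the arrays titled as healthy spleen of either strain, 3 for C57BL/6 and 3 for BALB/c, so that 6 of the 30 arrays of the series entered the comparison. The study used these cells as the starting point for each strain's tumor-bearing mice: C57BL/6 mice carried EL-4 or MCA203 tumors, and BALB/c mice carried C26-GM or 4T1 tumors. All cells were enriched with magnetic beads, and RNA was measured on a mouse whole-genome Affymetrix array. No treatment, transgene or tumor is recorded for the 6 healthy animals or pools, and age, sex, substrain and the number of mice behind an array are not given in the sources used here, so the p-values measure the spread between arrays, which may be partly technical.

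The labels of the C57BL/6 arrays contradict each other. Title and strain tag give C57BL/6, whereas the source and description fields of the same 3 arrays name BALB/c mice. Genes that are known to differ between the strains were therefore read first on all 30 arrays, 9 titled C57BL/6 and 21 titled BALB/c. H2-Ea, the class II alpha chain that C57BL/6 mice cannot make because of a promoter deletion, lay between 6.23 and 7.34 on the arrays titled C57BL/6 and between 9.35 and 13.05 on the arrays titled BALB/c, in log2 RMA units. Klra8, which encodes the activating receptor Ly49H and is missing from the BALB/c genome, lay between 4.84 and 6.73 on the arrays titled C57BL/6 and between 2.16 and 3.43 on those titled BALB/c. The 3 healthy spleen arrays titled C57BL/6 had H2-Ea between 6.60 and 6.93, within the range of the C57BL/6 tumor arrays, and Klra8 between 4.84 and 6.31, above every array titled BALB/c. The groups below follow the titles.

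The strains are inbred lines with different haplotypes at many immune loci. C57BL/6 mice have the H2b and BALB/c mice the H2d haplotype of the major histocompatibility complex, and the strains also differ in the natural killer gene complex, in the Ifi200 cluster of DNA sensors and in genes that restrict retroviruses. Textbook immunology takes C57BL/6 macrophages as inclined to classical and BALB/c macrophages as inclined to alternative activation.

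Correlations over 18194 genes, each read from 1 probe set, were 0.994 to 0.996 within C57BL/6, 0.995 to 0.996 within BALB/c and 0.983 to 0.988 between strains. The difference between 3' and 5' beta-actin probe sets, which grows as RNA degrades, was 0.19, 0.41 and 0.26 on the C57BL/6 arrays and 0.18, 0.25 and 0.19 on the BALB/c arrays. The same difference for Gapdh was -0.05, 0.42 and 0.09 on the C57BL/6 arrays and -0.11, -0.14 and -0.15 on the BALB/c arrays, so that C57BL/6 replicate 2 was highest for both and the strains did not overlap for Gapdh. The part of this in the strain differences was not tested. Csf1r, the receptor for the macrophage growth factor CSF1, was at 13.20, 13.15 and 13.24 in C57BL/6 cells, against 13.16, 13.19 and 13.19 in BALB/c cells, and Itgam itself was at 9.79, 9.25 and 9.47, against 9.98, 10.01 and 9.81 in BALB/c cells. The calgranulin genes S100a8 and S100a9 lay above 13 on every array. Defining myeloid markers were thus among the brightest genes of both strains, and Itgam did not pass the test (difference -0.43 ± 0.40, SE, adjusted p = 1).

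Of 18194 genes, 254 (1.4%) differed by at least 2-fold at an adjusted p below 0.05 in a limma fit over all arrays. In C57BL/6 cells 119 genes were higher (0.654% of all genes) and 135 were lower (0.742%), and all 119 of the higher and 132 of the lower genes had C57BL/6 and BALB/c arrays that did not overlap, which also held for 27.4% of all genes. These shares of all genes, 0.654% higher and 0.742% lower, stand beside every list count below. The median difference over all genes was -0.02 log2 units. Large differences were few: 8 genes were higher and 7 lower by at least 4 log2 units, and the medians of the called genes were 1.39 and -1.34. The count rests partly on single arrays, since it was 196 without BALB/c replicate 1, 199 without C57BL/6 replicate 2 and 234 without C57BL/6 replicate 1.

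**Figure D1:**
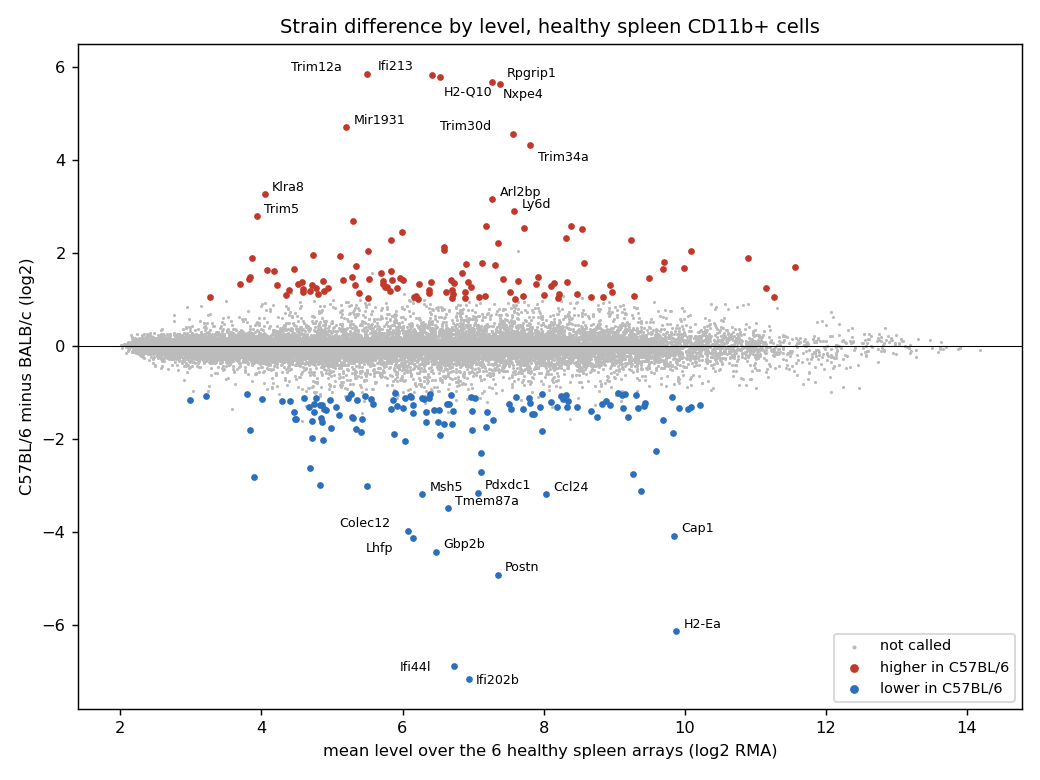
Strain difference (C57BL/6 minus BALB/c, log2) of 18194 genes against the mean log2 RMA level over the 6 healthy spleen arrays, with the 119 genes called higher and the 135 called lower in C57BL/6 in colour and the 12 largest of each named. Most genes lie near 0, and the largest differences are 5.86 for Trim12a, with Ifi213, H2-Q10, Nxpe4 and Rpgrip1 close to it, and -7.15 for Ifi202b, with Ifi44l close to it.

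Trim genes of a cluster on chromosome 7 gave the longest run of neighbouring genes called higher in C57BL/6 cells. They encode tripartite-motif proteins related to primate TRIM5, which binds retroviral capsids, and mouse Trim30 proteins are known as interferon-induced regulators of innate signalling. Trim12a was at 8.43, 8.44 and 8.38 in C57BL/6 cells, against 2.78, 2.39 and 2.51 in BALB/c cells. It was near the bottom of the scale on every BALB/c array and in the middle of it on every C57BL/6 array, a difference of 5.86 ± 0.15 (SE) or 57.9-fold (adjusted p = 1.71e-20). The second Trim12a probe set averaged 5.16 in C57BL/6 and 3.82 in BALB/c cells, a difference of 1.34 that was also called. Trim30d was at 9.86, 9.87 and 9.82 in C57BL/6 cells, against 5.10, 5.60 and 5.13 in BALB/c cells. The difference was 4.57 ± 0.32, and a second probe set of Trim30d gave 3.13. Trim5 was at 5.88, 5.37 and 4.76 in C57BL/6 cells, against 2.48, 2.49 and 2.66 in BALB/c cells. The C57BL/6 arrays spread over more than 1 unit and none met the BALB/c arrays (difference 2.79 ± 0.34). Trim34a, an interferon-inducible member, was at 9.69, 10.10 and 10.14 in C57BL/6 cells, against 5.89, 5.82 and 5.23 in BALB/c cells. Its 4.33 ± 0.19 depends on the probe set, because the second Trim34a probe set went the other way, with means of 4.73 in C57BL/6 and 7.40 in BALB/c cells (difference -2.68), and the mean of both probe sets gave 0.83.

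The sequences just upstream of these genes are shown because Trim34a, Trim5 and Trim12a rose as direct neighbours and Trim30d rose in the same cluster. They are from RefSeq, build GRCm38.p6, a C57BL/6J assembly, and cover 250 bases up to the annotated gene start, 5' to 3' on the gene's strand. Capitals mark GAAA followed after any 2 bases by GAAA, on either strand, the core of the element to which interferon-activated factors bind.
Trim12a, chr7:104315496-104315745, minus strand: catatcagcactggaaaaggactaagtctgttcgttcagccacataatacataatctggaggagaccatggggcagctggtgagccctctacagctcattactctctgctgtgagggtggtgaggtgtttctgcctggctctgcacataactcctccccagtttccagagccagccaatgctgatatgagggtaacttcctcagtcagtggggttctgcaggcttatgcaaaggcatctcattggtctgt
Trim5, chr7:104288107-104288356, minus strand: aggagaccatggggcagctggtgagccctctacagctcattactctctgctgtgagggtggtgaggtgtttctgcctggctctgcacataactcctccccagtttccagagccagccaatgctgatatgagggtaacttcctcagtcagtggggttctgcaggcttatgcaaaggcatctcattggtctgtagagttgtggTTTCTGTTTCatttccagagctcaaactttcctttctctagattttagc
Trim30d, chr7:104507850-104508099, minus strand: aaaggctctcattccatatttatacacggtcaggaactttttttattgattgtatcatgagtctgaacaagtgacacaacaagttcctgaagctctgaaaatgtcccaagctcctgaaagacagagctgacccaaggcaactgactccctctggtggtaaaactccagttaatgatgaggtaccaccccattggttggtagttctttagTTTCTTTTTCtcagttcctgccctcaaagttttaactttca

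Trim12a and Trim5 shared an identical run of 191 bases in these windows, whereas Trim30d shared at most 7 bases in a row with either. The motif was present once for Trim5 and once for Trim30d and absent from the windows of Trim12a and Trim34a. Over all 32851 windows of this length 2.98% held it. Among called genes with a window, it was in 10 of 96 (10.4%) of those higher in C57BL/6 and in 9 of 104 (8.65%) of those lower, and in 3.13% of all 14453 measured genes with a window. These are counts of letters in the reference of 1 of the strains, and a match is not a binding site.

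Other restriction factors shared the direction less widely. Of 16 measured genes of a list of retroviral restriction factors, 5 rose and 0 fell in C57BL/6 cells, with a median of 0.63 over the list against -0.02 over all genes. The fifth, Apobec3, a cytidine deaminase packaged into retroviral particles, was at 9.73, 9.85 and 9.85 in C57BL/6 cells, against 7.44, 7.23 and 7.20 in BALB/c cells. This 2.52 ± 0.17 (5.73-fold) showed no overlap, and the neighbouring transcript D730005E14Rik was also called higher. Among members that did not pass, Bst2, the tetherin that holds virions on the cell surface, averaged 8.73 in C57BL/6 and 7.76 in BALB/c cells (adjusted p = 0.094), Trim30a differed by 0.91, Trim12c by -0.53 and the membrane proteins Ifitm1, Ifitm2, Ifitm3 and Ifitm6 by -0.07 to 0.35.

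Of 25 measured type I interferon-stimulated genes 1 rose and 0 fell, with a list median of 0.17. Of them 20 were positive and 5 had an unadjusted p below 0.05. The summed level was 19369 to 22767 on C57BL/6 arrays and 15920 to 19299 on BALB/c arrays. These ranges nearly met, and the sum includes the called gene, so it does not show that the list as a whole was apart. Ifi44l, an interferon-induced gene that fell and is described below, is not on this list. The gene called, Oasl2, an oligoadenylate-synthetase-like protein, was at 9.72, 9.59 and 9.74 in C57BL/6 cells, against 7.15, 7.44 and 6.68 in BALB/c cells (difference 2.59 ± 0.30). Its relatives Oas1a, Oas2, Oas3 and Oasl1 differed by 0.41, 0.15, 0.08 and -0.87, none past the test, and Irf7 and Stat2, the factors that drive the programme, by 0.04 and 0.06.

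The Ifi200 family held the strongest fall and the second strongest rise among the named genes. Its proteins bind cytosolic DNA: AIM2 starts an inflammasome and the product of Ifi202b holds AIM2 back. Ifi202b was at 3.03, 3.52 and 3.53 in C57BL/6 cells, against 10.64, 10.63 and 10.26 in BALB/c cells. The C57BL/6 arrays lay near the bottom of the scale and the difference was -7.15 ± 0.36 (adjusted p = 5.57e-14). Ifi213 was at 9.14, 9.25 and 9.59 in C57BL/6 cells, against 3.40, 3.55 and 3.54 in BALB/c cells. It ran the opposite way (5.83 ± 0.25), and a second probe set of Ifi213 gave 2.47. The other 6 measured members did not pass, from -0.20 for Mndal to 0.95 for Ifi209, with Aim2 at 0.37. The upstream windows of the oppositely behaving pair are given with the same marking.
Ifi213, chr1:173599273-173599522, minus strand: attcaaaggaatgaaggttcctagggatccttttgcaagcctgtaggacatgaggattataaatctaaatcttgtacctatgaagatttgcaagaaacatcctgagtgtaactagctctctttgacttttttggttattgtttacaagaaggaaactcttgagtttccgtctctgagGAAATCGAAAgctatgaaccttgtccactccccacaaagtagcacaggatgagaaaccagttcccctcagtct
Ifi202b, chr1:173982845-173983094, minus strand: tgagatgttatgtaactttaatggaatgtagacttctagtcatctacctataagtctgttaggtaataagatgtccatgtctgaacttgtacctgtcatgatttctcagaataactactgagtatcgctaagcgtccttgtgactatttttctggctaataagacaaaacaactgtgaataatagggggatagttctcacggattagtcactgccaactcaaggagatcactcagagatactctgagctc

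Ifi213 held 1 match to the interferon motif and Ifi202b held 0 in these windows. Ifi44l, an interferon-induced gene outside the family, was at 3.35, 2.78 and 3.76 in C57BL/6 cells, against 10.07, 10.40 and 10.04 in BALB/c cells. Of its 3 probe sets, those bright in BALB/c cells gave -6.87 and -6.76, and the dim one, at 2.82 in C57BL/6 and 3.54 in BALB/c cells, gave -0.72. Gbp2b, a guanylate-binding protein that acts on vacuoles of intracellular microbes, was at 4.64, 3.67 and 4.47 in C57BL/6 cells, against 8.78, 8.58 and 8.71 in BALB/c cells. It was the 1 called gene among 11 measured interferon-inducible GTPases (difference -4.43 ± 0.31), and its paralog Gbp2 was at 9.40 in C57BL/6 and 8.44 in BALB/c cells (adjusted p = 0.054).

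**Figure D2:**
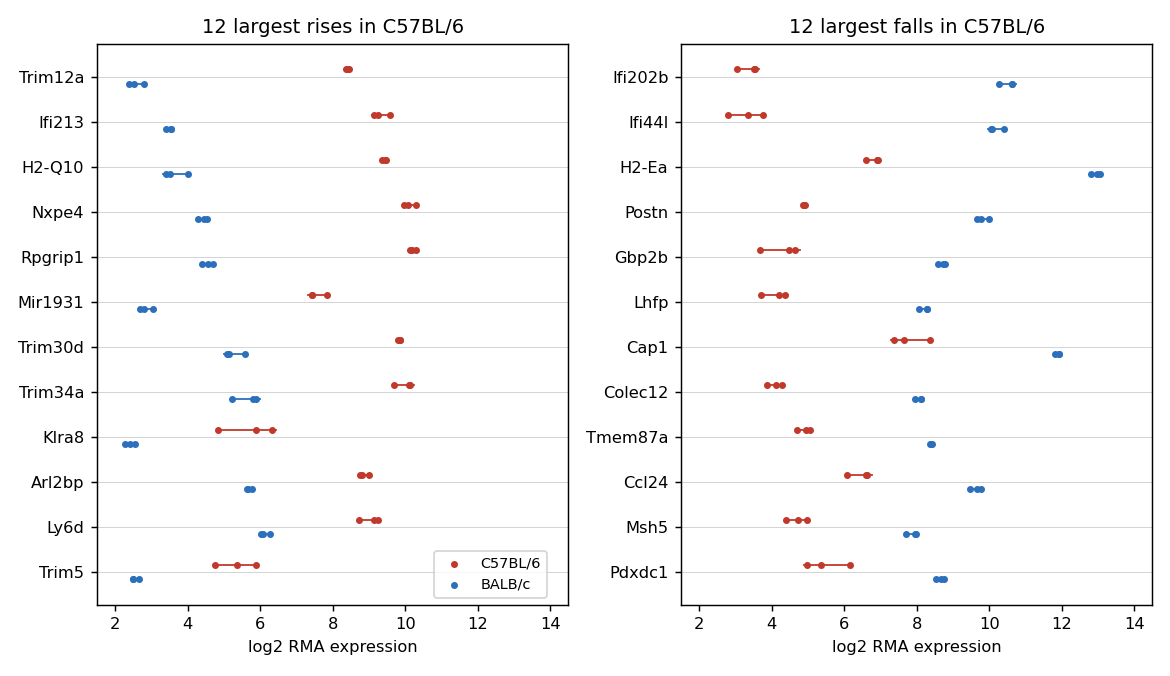
Log2 RMA level of the 12 genes with the largest rises (left) and the 12 with the largest falls (right) in C57BL/6 on each of the 3 C57BL/6 arrays (upper row of points for each gene) and 3 BALB/c arrays (lower row), with lines for the mean plus and minus 1 SD. The genes were chosen for strains that do not overlap, and Klra8 and Trim5 have the widest spread among C57BL/6 arrays of the rises.

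Differences in the major histocompatibility complex fell on few members. Class II molecules present peptides to CD4 T cells, class I molecules to CD8 T cells. H2-Ea was at 6.60, 6.93 and 6.89 in C57BL/6 cells, against 12.81, 12.97 and 13.05 in BALB/c cells, a difference of -6.13 ± 0.22. A second H2-Ea probe set averaged 3.99 in C57BL/6 and 13.38 in BALB/c cells (-9.39), and another was dim in both strains (-0.08). Its neighbour H2-Eb2, a second E beta gene, was at 8.24, 8.43 and 8.76 in C57BL/6 cells, against 6.18, 5.72 and 5.80 in BALB/c cells (2.58 ± 0.32). The genes that carry the bulk of class II did not pass: H2-Aa differed by -0.07, H2-Ab1 by -0.02, H2-Eb1 by 0.03 and the invariant chain Cd74 by 0.01.

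Of 16 measured genes on a class I list, 2 rose, where 0.654% of all genes did. Besides class I heavy chains, the list holds B2m, H2-Ke6, Psmb8, Psmb9, Tap1, Tap2 and Tapbp. H2-Q10, a secreted class I protein made mainly by liver, was at 9.45, 9.37 and 9.47 in C57BL/6 cells, against 3.41, 3.51 and 4.01 in BALB/c cells (5.79 ± 0.19). Its neighbour H2-Q5 had 6.73, 6.62 and 6.75 in C57BL/6 cells, against 4.98, 5.33 and 5.41 in BALB/c cells, but its second probe set averaged 3.04 in C57BL/6 and 4.64 in BALB/c cells and was called the other way (-1.60 against 1.46), so H2-Q5 has no settled direction. The classical genes H2-K1 and H2-D1 each differed by 0.17, and B2m by -0.01. Class I copies are close in sequence and differ by haplotype, so a probe set may read several of them.

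Receptors of the natural killer complex split. Klra8 was at 6.31, 5.90 and 4.84 in C57BL/6 cells, against 2.54, 2.28 and 2.42 in BALB/c cells (3.27 ± 0.34). Klrc1, which encodes the inhibitory receptor NKG2A, was at 4.73, 3.95 and 4.40 in C57BL/6 cells, against 5.82, 5.67 and 6.05 in BALB/c cells (-1.49 ± 0.28), and its second probe set gave -0.54. Klra17, the Ly49Q receptor of plasmacytoid and some myeloid cells, was at 8.35, 8.29 and 8.64 in C57BL/6 cells, against 9.99, 9.95 and 9.92 in BALB/c cells. Klra17 (-1.53 ± 0.39, adjusted p = 0.0257) lost its call when any 1 of the 6 arrays was left out, with adjusted p from 0.055 without C57BL/6 replicate 3 to 0.126 without C57BL/6 replicate 2.

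Natural killer markers were lower in C57BL/6 cells in 9 of 12 cases, most of them short of the test. Of 12 measured natural killer markers 1 rose and 2 fell, where the share called over all genes was 1.4%. The list median was -0.46, and the summed linear level was 2679 to 2893 on C57BL/6 arrays and 2555 to 3542 on BALB/c arrays. Ncr1, the receptor NKp46 that defines the lineage, was at 5.86, 5.49 and 5.21 in C57BL/6 cells, against 7.25, 6.71 and 7.48 in BALB/c cells (-1.63 ± 0.28). Gzma, a granule protease, was at 9.69, 9.05 and 9.01 in C57BL/6 cells, against 10.70, 10.25 and 10.82 in BALB/c cells (-1.34 ± 0.34, adjusted p = 0.0267), and Cd3d of the T cell receptor complex at 6.77, 7.34 and 7.23, against 8.59, 8.61 and 8.49 in BALB/c cells (-1.45 ± 0.34, adjusted p = 0.0159). Klrd1, the CD94 chain that pairs with NKG2A, ran the other way, at 9.87, 10.39 and 10.41 in C57BL/6 cells, against 8.81, 8.66 and 8.79 in BALB/c cells (1.47 ± 0.30). Gzma was not called without C57BL/6 replicate 2 or 3 or BALB/c replicate 1 or 3 (adjusted p 0.124 to 0.15), nor Cd3d without C57BL/6 replicate 1 or BALB/c replicate 1 or 2 (0.0679 to 0.107), and the natural killer count was 4 lower without C57BL/6 replicate 1 or BALB/c replicate 2 and 1 lower without C57BL/6 replicate 2 or 3 or BALB/c replicate 1. In a bulk sample, fewer cells of a type and less RNA per cell cannot be told apart.

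B cell and red cell genes leaned in opposite directions, and neither list was tested as a group. None of 11 measured B cell markers passed the fold and p thresholds together in limma, while 7 had an unadjusted p below 0.05 and 10 were positive, the list median was 0.67, and the summed level was 6303 to 8249 on C57BL/6 arrays and 4851 to 5305 on BALB/c arrays. Cd79a, a signalling chain of the B cell receptor, was at 8.92, 8.77 and 9.08 in C57BL/6 cells, against 7.87, 7.89 and 8.20 in BALB/c cells (0.94, adjusted p = 0.0014, under 2-fold), and 1 member of the list was called without C57BL/6 replicate 2 and without BALB/c replicate 3. Beside this, Cxcr5, the receptor that guides B cells to follicles, was called higher (7.34, 6.98 and 7.62 in C57BL/6 cells, against 5.83, 6.13 and 6.34 in BALB/c cells), as was Ly6d, a surface protein of B-lineage precursors (9.14, 8.73 and 9.25 in C57BL/6 cells, against 6.09, 6.03 and 6.28 in BALB/c cells). The part of B cells in Cxcr5 (1.22 ± 0.19) and Ly6d (2.91 ± 0.41) was not tested.

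All 9 measured erythroid genes were negative, with a median of -0.86 and a summed level of 1071 to 1825 on C57BL/6 arrays and 2119 to 3816 on BALB/c arrays. Tfrc, the transferrin receptor, was called at -1.02 ± 0.22. Tfrc lost its call without C57BL/6 replicate 1 (-0.90, adjusted p = 0.0618) or BALB/c replicate 1 (-0.98, under 2-fold). The mean of its probe sets gave -0.97, and centring on housekeeping genes gave -0.997, both under 2-fold. Slc4a1, the anion exchanger of red cells, was called at -1.41 ± 0.34 although its arrays overlapped, with 5.92, 6.18 and 7.36 in C57BL/6 cells, against 8.55, 7.91 and 7.23 in BALB/c cells. It lost its call without C57BL/6 replicate 1 or 2 or BALB/c replicate 1 or 2 (adjusted p 0.0655 to 0.197), its other probe sets gave 0.01 and -1.23, and the mean of all gave -0.88. The erythroid count was 0 without C57BL/6 replicate 1 or BALB/c replicate 1, 1 without C57BL/6 replicate 2 and 4 without C57BL/6 replicate 3. Clec1b, the podoplanin receptor CLEC-2 of platelets and some myeloid cells, was at 8.93, 8.75 and 9.32 in C57BL/6 cells, against 6.55, 6.55 and 6.25 in BALB/c cells (2.55 ± 0.32), while the other 8 measured platelet genes did not pass and Pf4 averaged 6.35 in C57BL/6 and 7.47 in BALB/c cells (adjusted p = 0.065).

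**Figure D3:**
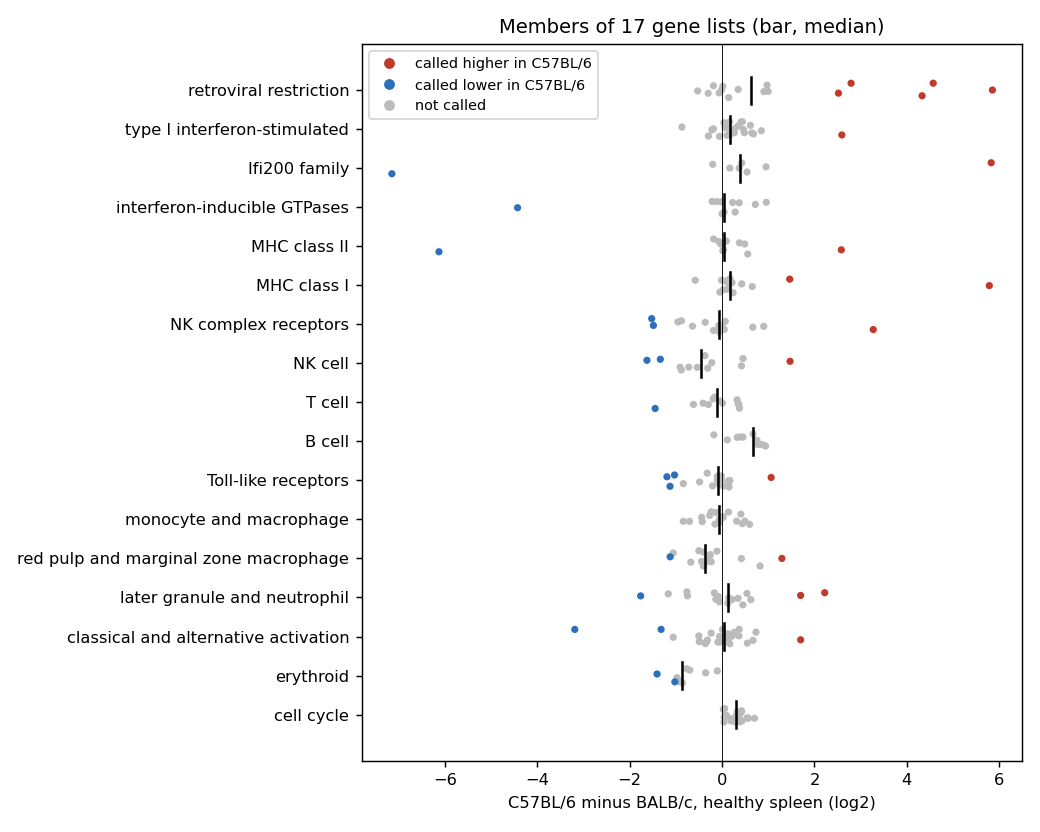
Strain difference in healthy spleen (C57BL/6 minus BALB/c, log2) for the measured members of 17 gene lists, with a bar at each list's median. Restriction factors have 5 called members on the right and none on the left, with a median of 0.63, the Ifi200 family has its called members at the extremes, and none of the monocyte and macrophage genes was called.

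Some sensors of microbial products were called, where the share over all genes was 1.4%. Of 18 measured genes of Toll-like receptor signalling, 3 fell, 1 rose and 14 did not pass, with a median of -0.09. Leaving out 1 array at a time gave 1 to 3 falls, the 1 without BALB/c replicate 1, and 0 or 1 rises, the 0 without C57BL/6 replicate 1. Tlr6, which pairs with TLR2 to sense diacylated lipoproteins, was at 7.50, 7.45 and 7.42 in C57BL/6 cells, against 8.55, 8.47 and 8.45 in BALB/c cells, with little spread in either strain (-1.03 ± 0.22, adjusted p = 0.00512). Tlr4, the receptor for lipopolysaccharide, was at 7.69, 7.43 and 7.39 in C57BL/6 cells, against 8.63, 8.67 and 8.80 in BALB/c cells (-1.19 ± 0.30, adjusted p = 0.0233), but its other 3 probe sets gave -0.47, -0.21 and -0.58. Tirap, the adaptor that links TLR4 and TLR2 to MyD88, had 7.87, 7.51 and 7.73 in C57BL/6 cells, against 9.10, 8.81 and 8.58 in BALB/c cells (-1.13 ± 0.24). Cd180, an LPS receptor relative that is abundant on B cells, was at 7.79, 7.53 and 7.53 in C57BL/6 cells, against 6.57, 6.45 and 6.64 in BALB/c cells (1.06 ± 0.20).

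These calls are close to the threshold. Without BALB/c replicate 1 only 1 of the 3 falls was called (Tirap then had an adjusted p of 0.0549), and Tlr4 was not called without C57BL/6 replicate 2 or 3 or any BALB/c array (0.0737 to 0.11). Cd180 was at 0.975, under 2-fold, without C57BL/6 replicate 1. Cd14, the lipopolysaccharide co-receptor, was at 9.69, 9.62 and 9.70 in C57BL/6 cells, against 10.44, 10.36 and 10.73 in BALB/c cells, and at -0.84 it also fell short of 2-fold. C5ar1, the receptor for the complement fragment C5a, was the 1 called member of 21 measured complement genes (-1.31 ± 0.33), and was called neither without C57BL/6 replicate 2 or 3 nor without any single BALB/c array (0.0566 to 0.131). The second C5ar1 probe set gave -1.25 without a call. Fcgrt, the neonatal Fc receptor that recycles IgG, was the 1 called member of 13 Fc receptor genes (-1.08 ± 0.28) and lost its call whichever array was left out (0.0785 to 0.175). None of 17 inflammasome genes was called by limma, and 5 had an unadjusted p below 0.05. Pycard, the adaptor ASC, differed by 0.78 and Il1b by -0.89. In this list 7 members were positive and 10 negative, with a median of -0.07. The summed level was 11410 to 12514 on C57BL/6 arrays and 14887 to 16025 on BALB/c arrays. Il1b was the brightest member on every array and weighs most in this sum, which does not show a shift of the whole list.

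Genes of the monocyte and macrophage list gave no call, whereas the marginal zone genes Marco and Cd209b and the scavenger receptor Colec12 did. Of 19 monocyte and macrophage genes 0 were called in either direction by limma and 6 had an unadjusted p below 0.05, with a median of -0.06. Of 15 genes of red pulp and marginal zone macrophages, Marco rose and Cd209b fell, 12 were negative, the median was -0.37 and the summed level was 24664 to 27865 on C57BL/6 arrays and 29047 to 29669 on BALB/c arrays, without overlap. Marco, a scavenger receptor of marginal zone macrophages, was at 8.40, 8.96 and 8.91 in C57BL/6 cells, against 7.89, 7.19 and 7.30 in BALB/c cells (1.29 ± 0.20, second probe set 0.89 and not called). Cd209b, the lectin SIGN-R1 of the same zone, was at 5.47, 5.78 and 5.97 in C57BL/6 cells, against 6.64, 7.14 and 6.82 in BALB/c cells (-1.13 ± 0.27), and lost its call without C57BL/6 replicate 1 or 2 or BALB/c replicate 2 or 3 (adjusted p 0.0531 to 0.115). Colec12, a collectin scavenger receptor, was at 4.29, 3.86 and 4.12 in C57BL/6 cells, against 8.12, 8.11 and 7.95 in BALB/c cells (-3.97 ± 0.24).

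Activation genes did not follow 1 pattern. Of 28 genes used to mark classical or alternative activation, 1 rose and 2 fell, with a median of 0.03. Ccl24, an eosinophil-attracting chemokine of alternatively activated macrophages, was at 6.64, 6.07 and 6.60 in C57BL/6 cells, against 9.65, 9.46 and 9.76 in BALB/c cells (-3.19 ± 0.32, 9.13-fold lower). Alox15, a lipoxygenase of the same state and of eosinophils, was at 9.09, 7.63 and 8.65 in C57BL/6 cells, against 9.70, 9.81 and 9.83 in BALB/c cells. Its value rests on C57BL/6 replicate 2 (-1.32 ± 0.32 with it, and -0.91, adjusted p = 0.266, without it), and it also lost its call whichever BALB/c array was left out (0.0651 to 0.0803). Chil3, the chitinase-like protein Ym1 that is listed for alternative activation and is also abundant in neutrophil precursors, was higher, at 12.23, 12.56 and 12.44 in C57BL/6 cells, against 10.70, 10.62 and 10.80 in BALB/c cells (1.70 ± 0.23). Arg1 and Nos2 were dim in both strains (means 3.51 and 4.66 in C57BL/6 cells, against 3.83 and 4.75 in BALB/c cells) and did not pass, nor did Mrc1 at -0.50, Retnla at 0.17, Il12b at -0.49, Tnf at 0.01 or Irf5 at 0.12.

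Beside Ccl24 and Alox15, eosinophil markers leaned lower without a call in limma: all 9 measured eosinophil, basophil and mast cell genes were negative, 3 at an unadjusted p below 0.05. Ccr3 averaged 8.51 in C57BL/6 and 9.68 in BALB/c cells (adjusted p = 0.052), Prg2 averaged 7.47 in C57BL/6 and 8.77 in BALB/c cells, and the summed level was 520 to 1452 on C57BL/6 arrays and 1294 to 2038 on BALB/c arrays. On C57BL/6 replicate 2, where Alox15 was at 7.63, Ccr3 was at 7.76, the lowest of the 6 arrays for both genes. The part of eosinophils in Ccl24 and Alox15 was not tested, and without C57BL/6 replicate 1 the list had 2 called members.

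Arginine genes differed in 2 places. Arg2, the mitochondrial arginase, was at 8.92, 8.59 and 8.54 in C57BL/6 cells, against 10.11, 10.04 and 9.85 in BALB/c cells (-1.32 ± 0.29, second probe set -1.40 and not called). Slc7a2, a cationic amino acid transporter, was at 6.47, 6.39 and 6.56 in C57BL/6 cells, against 4.84, 4.96 and 4.91 in BALB/c cells. Slc7a2 (1.57 ± 0.42) lost its call whichever array was left out (adjusted p 0.102 to 0.141), and its other 3 probe sets gave 0.01, 0.37 and -0.04. Together they were the 2 called members of 22 genes of suppressive myeloid cells, whose remaining members included Cebpb at 0.07, Il4ra at 0.27 and Cd274 at 0.59, none past the test.

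Among 31 chemokines and receptors, Cxcr5 rose and Cxcl12 and Ccrl2 fell. Ccrl2, an atypical receptor that holds chemerin, was at 7.81, 7.82 and 7.85 in C57BL/6 cells, against 9.07, 9.0 and 9.32 in BALB/c cells (-1.30 ± 0.26). Cxcl12, the stromal ligand of CXCR4, was at 5.58, 5.25 and 6.25 in C57BL/6 cells, against 8.0, 7.29 and 6.67 in BALB/c cells (-1.62 ± 0.33), and its call was lost without C57BL/6 replicate 2 (adjusted p = 0.052) or BALB/c replicate 1 (0.0684). Its other probe sets gave -1.14 and -0.05 without a call, and the mean of all gave -0.94, under 2-fold. The chemokine falls were 4 without C57BL/6 replicate 1 and 1 without BALB/c replicate 1.

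Neutrophil genes were called in the later granule list and not in the primary one, where the share over all genes was 1.4%. None of 9 primary granule genes was called by limma and 1 had an unadjusted p below 0.05, and of 17 later granule and neutrophil genes 2 rose (Chil3 and Itgb2l), 1 fell and 6 had an unadjusted p below 0.05. Itgb2l, an integrin beta chain close to Itgb2, was at 8.18, 8.76 and 8.45 in C57BL/6 cells, against 6.43, 6.17 and 6.13 in BALB/c cells (2.22 ± 0.33), while its other 2 probe sets were dim and gave -0.07 and -0.28. Stfa3, a stefin that inhibits cysteine proteases, was at 4.18, 4.25 and 3.87 in C57BL/6 cells, against 5.87, 5.75 and 5.96 in BALB/c cells (-1.76 ± 0.48, adjusted p = 0.042), and lost its call whichever array was left out (0.104 to 0.172). Its neighbour Stfa2l1, a near copy, was lower as well (-1.36, adjusted p = 0.0494). Lactoferrin (Ltf) differed by 0.62, Mmp8 by -0.14, Mpo by -0.16, Elane by 0.02, Olfm4, a glycoprotein of a neutrophil subset, by -1.17 and Csf3r, the G-CSF receptor, by -0.76, none past the test, and all 21 measured cell cycle genes were positive but uncalled, with a median of 0.30 and 3 at an unadjusted p below 0.05. None of 14 dendritic cell genes or of 11 immunoglobulin and plasma cell genes was called by limma, with 4 and 2 at an unadjusted p below 0.05.

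A few members of further surface protein families rose. Cd300ld, an activating receptor of the CD300 family, was at 9.86, 9.24 and 9.36 in C57BL/6 cells, against 7.14, 7.19 and 7.12 in BALB/c cells (2.34 ± 0.19), the 1 call among 23 paired receptors, of which 17 were negative (median -0.14). Of 13 measured genes of the Ly6 surface antigens 2 rose, Ly6d as given above and Ly6i. Ly6i was at 7.91, 7.75 and 8.42 in C57BL/6 cells, against 6.07, 6.34 and 6.27 in BALB/c cells (1.80 ± 0.21). Slamf8, a SLAM family receptor of macrophages, was at 9.24, 9.06 and 9.28 in C57BL/6 cells, against 7.97, 7.96 and 8.48 in BALB/c cells. It was the 1 call among 10 measured SLAM family genes. Slamf8 (1.05 ± 0.24) lost its call without C57BL/6 replicate 1 or 3 or BALB/c replicate 1 or 2 (adjusted p 0.053 to 0.0855).

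Enzymes of redox defence gave 2 calls among 31. Gsr, glutathione reductase, was at 10.47, 10.44 and 10.22 in C57BL/6 cells, against 8.17, 8.20 and 7.89 in BALB/c cells, and both its probe sets agreed (2.29 ± 0.19 and 2.27). Glo1, which clears methylglyoxal, was at 8.27, 8.0 and 8.37 in C57BL/6 cells, against 9.41, 9.29 and 9.66 in BALB/c cells (-1.24 ± 0.21), with its other probe sets at -1.22, -0.64 and -1.49. Nnt, the mitochondrial transhydrogenase that is truncated in the C57BL/6J substrain, was at 8.37, 8.23 and 8.30 in C57BL/6 cells, against 8.72, 8.59 and 8.60 in BALB/c cells and did not pass (-0.34 ± 0.20).

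Stress genes differed between arrays of the same strain. Of 21 measured immediate early and heat shock genes 1 rose and 0 fell, with 16 negative and a median of -0.16. Hsph1, a heat shock protein of the HSP110 class, was at 8.26, 9.27 and 8.15 in C57BL/6 cells, against 6.97, 6.78 and 7.94 in BALB/c cells. C57BL/6 replicate 2 stood highest, as it did for Hspa1b, an inducible HSP70, at 8.14, 10.63 and 7.19 in C57BL/6 cells, against 5.44, 6.63 and 7.77 in BALB/c cells. BALB/c replicate 3 was the highest of its strain for both genes. Without C57BL/6 replicate 2, Hsph1 was at 0.98 (adjusted p = 0.364, against 1.33 and 0.037 with it). It also lost its call without C57BL/6 replicate 1 (0.052) or BALB/c replicate 1 or 2 (0.208 and 0.257). The second Hsph1 probe set gave 1.25 without a call. Fos, an immediate early gene, was at 11.81, 12.28 and 11.33 in C57BL/6 cells, against 12.70, 12.60 and 12.73 in BALB/c cells and was not called.

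Several of the largest differences lay outside immune lists. Rpgrip1, a scaffold of photoreceptor cilia, was at 10.13, 10.18 and 10.30 in C57BL/6 cells, against 4.57, 4.39 and 4.71 in BALB/c cells. That 5.65 ± 0.13 came from 1 of 4 probe sets, the others giving -0.09, 0.01 and 0.64. Nxpe4 was at 10.30, 10.07 and 9.96 in C57BL/6 cells, against 4.30, 4.53 and 4.45 in BALB/c cells (5.68 ± 0.18), and Arl2bp, a partner of the small GTPase ARL2, at 9.0, 8.82 and 8.74, against 5.77, 5.64 and 5.67 in BALB/c cells (3.16 ± 0.20, second probe set 2.73). A probe set annotated to Mir1931 differed by 4.72, although such an array reads the long precursor transcript at most and not the mature microRNA.

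Falls outside immune lists included Cap1, Tmem87a, Msh5 and Pdxdc1. Cap1, which recycles cofilin and actin, was at 8.38, 7.65 and 7.37 in C57BL/6 cells, against 11.92, 11.92 and 11.82 in BALB/c cells, and both its probe sets gave the fall (-4.09 ± 0.22 and -4.32). Tmem87a, a membrane protein of the Golgi, was at 4.69, 4.94 and 5.06 in C57BL/6 cells, against 8.38, 8.37 and 8.42 in BALB/c cells (-3.49 ± 0.20). Msh5, a meiotic recombination factor encoded within the major histocompatibility complex, was at 4.72, 4.97 and 4.38 in C57BL/6 cells, against 7.99, 7.95 and 7.69 in BALB/c cells (-3.19 ± 0.19), with -1.0 on its second probe set, just under 2-fold and not called. Pdxdc1 was at 5.35, 4.97 and 6.15 in C57BL/6 cells, against 8.74, 8.66 and 8.53 in BALB/c cells (-3.16 ± 0.26), but another of its 4 probe sets was called the other way at 2.20.

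Postn and Lhfp were lower too. Postn encodes periostin, a matrix protein of fibroblasts, and was at 4.89, 4.92 and 4.85 in C57BL/6 cells, against 9.99, 9.78 and 9.65 in BALB/c cells (-4.92 ± 0.26, adjusted p = 2.61e-13). Lhfp, a tetraspan membrane protein, was at 4.19, 3.70 and 4.37 in C57BL/6 cells, against 8.27, 8.07 and 8.28 in BALB/c cells (-4.12 ± 0.29), and its neighbour C130075A20Rik was also called lower. Both genes had arrays far apart by strain and little spread within BALB/c.

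Most called genes with several probe sets rest on 1 called probe set. Of the 254 called genes, 115 had more than 1 probe set: in 43 another probe set was called the same way, in 72 no other was, though it could share the sign, and in 4 (H2-Q5, Pdxdc1, Trim34a and Zfp945) another was called the opposite way. A probe set reads a short stretch near the 3' end of a transcript, and the probes were designed without regard to these strains. Whether strain differences in sequence under the probes, rather than in RNA level, enter these values was not tested.

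Called genes lay next to each other more often than uncalled ones. Of the 254 called genes 37 (14.6%) had a called gene as nearest measured neighbour in RefSeq gene order, against 464 of 17892 uncalled genes (2.59%). These formed 18 runs, of which Trim34a, Trim5 and Trim12a was the longest. In some runs the members went opposite ways. Ang, an angiogenin ribonuclease, averaged 6.65 ± 0.14 in C57BL/6 and 3.95 ± 0.26 in BALB/c cells (SD, n = 3 each), whereas Rnase4, which overlaps it in the genome, averaged 7.06 ± 0.42 in C57BL/6 and 8.89 ± 0.20 in BALB/c cells.

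The tumor infiltrates gave a second view of the strains. Their arrays do not enter the spleen means, but they share the model's estimate of spread and the choice of probe set with the spleen comparison. There, EL-4 and MCA203 infiltrates stood for C57BL/6 and C26-GM and 4T1 infiltrates for BALB/c, with 6 arrays per strain, and tumor line and strain cannot be told apart. In that contrast 1114 genes (6.12%) were called, 598 higher (3.29%) and 516 lower (2.84%) in C57BL/6. The difference between 3' and 5' probe sets on C26-GM tumor replicate 3 was 2.42 for beta-actin and 1.92 for Gapdh, the highest of the 30 arrays. Without that array 1156 genes were called, 595 higher and 561 lower in C57BL/6. With arrays centred on housekeeping genes, which shifted the median over all genes to -0.18, the split was 432 higher and 745 lower. Of the 119 genes higher in C57BL/6 spleen, 58 (48.7%, and 9.7% of the tumor list) were also higher in C57BL/6 tumors and 2 were lower. Of the 135 genes lower in C57BL/6 spleen, 45 (33.3%, and 8.72% of the tumor list) were also lower in C57BL/6 tumors and 12 were higher. The median tumor difference was 0.98 for the higher and -0.72 for the lower set, against 0.00 over all genes.

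**Figure D4:**
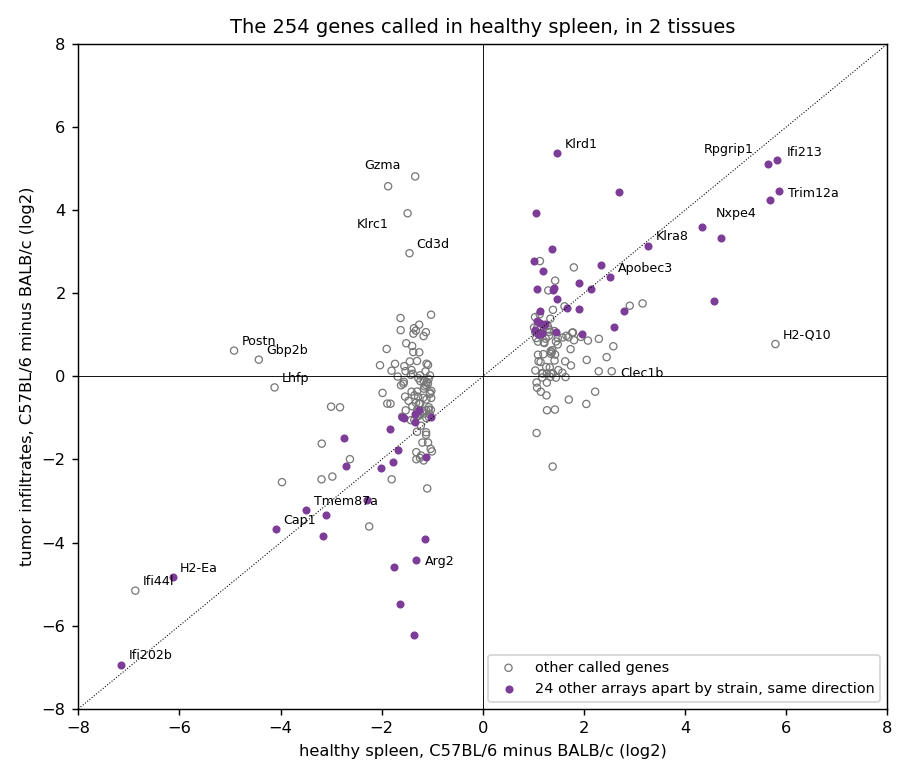
Tumor strain difference (EL-4 and MCA203 minus C26-GM and 4T1 infiltrates, log2) against the healthy spleen strain difference for the 254 genes called in spleen. Filled points are the genes whose 6 C57BL/6 and 18 BALB/c other arrays do not overlap in the same direction. Ifi202b lies near the dotted line of equal differences and Trim12a below it (5.86 in spleen, 4.45 in tumors), whereas Postn, Gbp2b, Lhfp and H2-Q10 lie near 0 on the tumor axis.

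Over all 24 other arrays, 37 of the 119 higher genes (31.1%, against 1.73% of all genes) had their 6 C57BL/6 arrays all above the 18 BALB/c arrays, and 25 of the 135 lower genes (18.5%, against 0.594%) had them all below, while 3 of the lower genes were apart the opposite way. Apobec3 was at 9.43 to 9.74 on the 6 other C57BL/6 arrays and 6.82 to 7.86 on the 18 other BALB/c arrays. Cap1 was at 6.71 to 8.56 on the other C57BL/6 arrays and 11.06 to 12.41 on the other BALB/c arrays, and Tmem87a was at 4.60 to 5.35 on the other C57BL/6 arrays and 6.95 to 8.63 on the other BALB/c arrays. Rpgrip1 was at 9.61 to 10.19 on the other C57BL/6 arrays and 4.50 to 5.12 on the other BALB/c arrays. For these 4 genes every C57BL/6 array lay on 1 side of every BALB/c array, whether from spleen, tumor or marrow.

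Elsewhere the spleen difference was not the tumor difference. The test of the difference between tissues was passed by 897 of all genes (4.93%) and by 107 of the 254, 48 of the higher (40.3%) and 59 of the lower (43.7%). The 254 genes were chosen by the spleen difference, which also enters this test, so their larger share was partly set by that choice. H2-Q10, near 9.4 in healthy C57BL/6 spleen, lay between 4.31 and 4.68 in EL-4 and between 3.83 and 4.22 in MCA203 infiltrates, against 3.60 to 3.67 in C26-GM and 3.29 to 3.59 in 4T1 infiltrates, so its tumor difference was 0.78. Gbp2b, near 4.3 in healthy C57BL/6 spleen, was at 7.87 to 9.43 in EL-4 and 10.33 to 10.99 in MCA203 infiltrates, against 8.08 to 9.21 in C26-GM and 9.87 to 9.90 in 4T1 infiltrates, and its tumor difference was 0.40. Postn was at 7.45 to 7.96 in EL-4 and 7.05 to 8.25 in MCA203 infiltrates, against 5.22 to 5.36 in C26-GM and 8.31 to 9.10 in 4T1 infiltrates (tumor difference 0.62), and at 8.68 to 9.30 in the spleens of C26-GM mice. The low level of these genes on the healthy C57BL/6 arrays, or the high level of H2-Q10 there, was therefore not seen on the C57BL/6 tumor arrays.

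**Figure D5:**
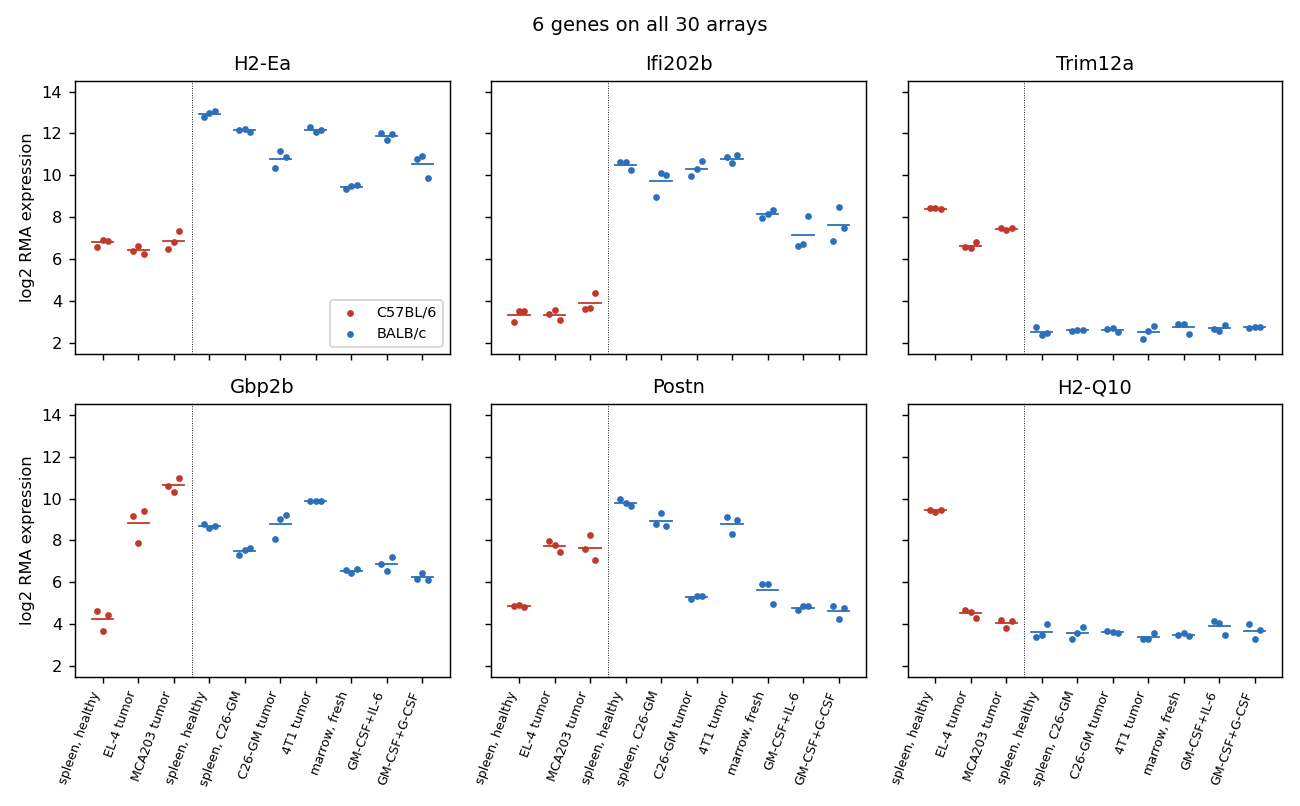
Log2 RMA level of 6 genes on all 30 arrays, with the 3 C57BL/6 groups left and the 7 BALB/c groups right of the dotted line, points for arrays and a bar for each group mean. H2-Ea, Ifi202b and Trim12a separate by strain in every group, whereas Gbp2b, Postn and H2-Q10 differ between the healthy spleens but not between all C57BL/6 and all BALB/c groups.

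Gzma, Klrc1, Cd3d and Ncr1 had opposite strain differences in the tissues, whereas Klrd1 kept its direction (1.47 in spleen, 5.38 in tumors). Gzma, lower in C57BL/6 spleen, was at 10.21 to 10.99 in EL-4 and 8.97 to 10.45 in MCA203 infiltrates, against 4.91 to 5.62 in C26-GM and 4.76 to 5.50 in 4T1 infiltrates, a tumor difference of 4.81. Klrc1, Cd3d and Ncr1 differed by 3.93, 2.96 and 1.41 in tumors. Arg2 kept its direction and was further apart, at -4.41 in tumors, whereas Gsr (0.12) and Clec1b (0.12) had no call there.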

How the data were processed

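The deposited table holds log2 RMA expression values for 45101 probe sets on 30 Affymetrix mouse arrays, normalized together by the authors per the labels and the submitters' processing notes, with the RMA version not given in the sources used here. The scanner files were not used here. Background correction and scan date were therefore not varied, and the number of arrays limits the precision. Of the probe sets, 34958 carried 1 gene symbol, 932 several and 9211 none, and each gene was read from the probe set that was brightest on average across the 30 arrays, giving 18194 genes, 9012 of them with several probe sets.

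One limma model (version 3.58.1, R 4.3.3) held 10 groups of 3 arrays. Contrasts were healthy spleen C57BL/6 minus BALB/c, the mean of EL-4 and MCA203 minus the mean of C26-GM and 4T1 infiltrates, and the difference between both. A gene was called at a Benjamini-Hochberg adjusted p below 0.05 over all genes and at least 2-fold. The fit was tested on simulated data. Named genes were the 12 largest rises and 12 largest falls with a known name and no overlap between arrays, a panel, and up to 5 called members of each of 36 gene lists, which gave 72 genes. The members and lists were chosen with earlier results of these data known. Summed list levels are sums of 2 to the power of the log2 values. Neighbours and upstream sequences came from RefSeq (GRCm38.p6), in which 18146 genes were placed. Alternatives covered the probe set rule, normalization, filter, thresholds, arrays in the fit, weights, the variance prior, the replicate block and leaving out each array.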

Additional observations from a re-analysis of the deposited data

Results flagged for a closer look

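For 40 named genes the strain difference in tumor infiltrates differed from that in healthy spleen by the test of the difference itself (limma, adjusted p below 0.05 and at least 2-fold, passed by 4.93% of all genes). Most named genes were chosen by their spleen difference, which also enters this test, so the shares cannot be compared. Tumor line and strain cannot be told apart on these arrays. Values are the tumor difference minus the spleen difference, both C57BL/6 minus BALB/c, on the log2 scale.

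Among genes of natural killer and T cells the value was 6.15 for Gzma, 5.41 for Klrc1, 4.42 for Cd3d, 3.905 for Klrd1 and 3.03 for Ncr1. These are differences between strain differences and not changes within a strain: Klrd1 averaged 9.15 in EL-4 and 10.54 in MCA203 infiltrates, against 10.23 in healthy C57BL/6 spleen. Granulocyte genes had negative values, -4.81 for Cd177, -4.34 for S100a9, -4.05 for S100a8, -2.815 for Stfa3, -2.59 for Itgb2l and -2.26 for Chil3, and so did Arg2 at -3.09 and Cebpb at -1.49. S100a8, S100a9, Cd177 and Cebpb had spleen differences between -0.08 and 0.12.

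Of the genes far apart in healthy spleen, Postn (5.54), Gbp2b (4.83), Lhfp (3.85) and H2-Q10 (-5.01) were not called in tumors. Trim30d (-2.77), Nxpe4 (-1.45), Arl2bp (-1.41), Trim12a (-1.41), Oasl2 (-1.40) and Mir1931 (-1.38) were higher in C57BL/6 in both tissues, by less in tumors, and H2-Eb2 (-1.86) was called in spleen and not in tumors. Ifi44l (1.72), Msh5 (1.57), Colec12 (1.43) and H2-Ea (1.302) were lower in C57BL/6 in both tissues, by less in tumors. Clec1b (-2.43) and Gsr (-2.17) differed by 0.12 each in tumors, with no call.

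Positive values were also found for Slamf8 (2.87), Cxcl12 (2.74), Tfrc (2.51), Cd5l (2.39), Cd209b (2.19), Fcgrt (1.36), Nos2 (1.17), Il12b (1.16) and Cd180 (1.05). Xist had 2.36, with a spleen difference of -0.05 and a tumor difference of 2.32, while Uty, Kdm5d and Eif2s3y on the Y chromosome averaged 2.39 to 3.14 in healthy C57BL/6 and 2.34 to 3.09 in healthy BALB/c spleen. The part of the animals' sex in the tumor contrast was not tested.

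Probe sets without a gene symbol lay outside the comparison of genes. Of 9211 such probe sets, 199 (2.16%) met the same thresholds in healthy spleen, and the largest difference was 7.27, with means of 9.89 in C57BL/6 and 2.62 in BALB/c cells.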

How the results depend on the processing

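Of 60 named genes that were called in healthy spleen, 39 were called under every alternative in which they were measured, and 21 lost the call in at least 1. The only probe sets of Ifi202b and Klra8 are of types that may read several transcripts. Neither gene was measured when such probe sets were removed, which left 69 of the 72 named genes. H2-Q5 reversed, to -0.067 with the mean of its probe sets, which run opposite ways. Leaving out 1 array gave 196 to 234 called genes in spleen (103 to 116 higher, 91 to 118 lower), 1093 to 1156 in tumors (573 to 632 higher, 496 to 561 lower) and 777 to 948 for the difference between tissues (strain by tissue) (443 to 534 higher, 334 to 432 lower). With no minimum fold the counts were 465, of which 237 were higher and 228 lower, in spleen, 4741, of which 2792 were higher and 1949 lower, in tumors, and 1428 for strain by tissue, with 852 for strain by tissue, higher, and 576 for strain by tissue, lower. Testing each probe set gave 428 spleen genes, 247 of them higher (57.7%, against 46.9% in the main count). The mean of probe sets gave 215 spleen genes and kept 192 of the 254, and the 6 spleen arrays alone gave 287 and kept 253. Centring on housekeeping genes gave 608 for strain by tissue, lower, and 36.7% higher calls in tumors, against 53.7%. A model without the 6 cytokine culture arrays, chosen after seeing the data, gave 263 in spleen. Replicate numbers did not pair the arrays (deviation correlations 0.02, 0.11 and 0.03), and the replicate block gave 248. Unless shown by the construction of an alternative, the cause of a change was not tested. Among values per gene and alternative, 1198 stayed called in the same direction or stayed uncalled, 92 lost the call and 1 reversed. Uncalled genes could change sign among the 1198, as Cebpb did, from -0.085 to 0.161 when 1 array was left out. Signal near the scale's lower end limits the fold of genes dim in 1 strain.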
